A study of Mus musculus with 8 samples.

Results

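The transcripts described here are those of 6 CXC chemokines (Cxcl1, Cxcl2, Cxcl3, Cxcl5, Cxcl12 and Cxcl16) and 2 of their receptors (Cxcr2 and Cxcr4) in reperfused mouse heart. They were chosen by name, and all 8 were measured, each by 1 probe set with a single gene symbol, among 19938 genes in all. The study took 8 samples of myocardium, called ischaemic in its title, from male CH3 mice (the strain name as labelled), which were 8 to 10 weeks old and weighed 25 to 30 g. For the 4 placebo samples mice received phosphate-buffered saline, and for the 4 DJ-1 samples recombinant DJ-1 protein, each given 1 hour before ligation of the left anterior descending coronary artery. In both groups the artery was closed for 45 minutes and reopened for 2 hours. No unoperated or sham group was used here, so the levels describe injured hearts with and without the protein and not the response to injury itself. DJ-1, encoded by Park7, is a redox-sensitive protein, and the comparison asked which transcripts differed when it had been given before ischaemia.

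Chemokines are small secreted proteins that guide leukocytes along a gradient, and the CXC family is named for a pair of cysteines with a single residue between them. The members that carry the residues Glu-Leu-Arg before those cysteines, here Cxcl1, Cxcl2, Cxcl3 and Cxcl5 (ELR chemokines), bind CXCR2 on neutrophils and draw them from blood into tissue; in the reperfused heart they are known as early products of endothelium, resident macrophages and other stressed cells. CXCL12 lacks these residues, is made constantly by stromal and vascular cells, and acts through CXCR4 in cell retention and survival. CXCL16 is a membrane-bound chemokine that can be shed and that binds CXCR6 on lymphocytes.

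The ELR ligand genes lie in a cluster on mouse chromosome 5. In the RefSeq annotation of GRCm38.p6 the order of protein-coding genes is Cxcl5, Ppbp, Pf4, Cxcl3, Cxcl15, Cxcl1 and Cxcl2. Promoter windows of 300 bases (250 before the annotated start and 50 after it) were found in the RefSeq table for 6 of the 8 genes. Cxcl5 and Cxcl16 had no window there, so their promoters were not searched. The longest run of bases that the windows of Cxcl1, Cxcl2 and Cxcl3 share before the start is GGGAATTTCCC, 11 bases long, which has the form of a site for NF-kappaB, the factor best known for switching on ELR chemokines. It was searched on both strands together with the TATA word ATAAAAG. The 110 bases before the annotated start of these 3 genes (RefSeq, GRCm38.p6, plus strand, at chr5:90891135-90891244, chr5:90903789-90903898 and chr5:90785991-90786100) are shown because rank correlations between these transcripts passed the adjusted threshold, with the shared run and the TATA word in capitals.
Cxcl1: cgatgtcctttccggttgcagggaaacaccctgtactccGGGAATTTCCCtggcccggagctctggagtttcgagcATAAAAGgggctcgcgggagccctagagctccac
Cxcl2: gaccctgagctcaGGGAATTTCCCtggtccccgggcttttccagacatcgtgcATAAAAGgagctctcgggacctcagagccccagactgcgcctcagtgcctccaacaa
Cxcl3: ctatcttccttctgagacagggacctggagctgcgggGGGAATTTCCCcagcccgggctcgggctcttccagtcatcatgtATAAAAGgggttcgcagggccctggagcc

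Each of these 3 windows held the shared run once, with the first base at -71 in Cxcl1, -97 in Cxcl2 and -73 in Cxcl3 relative to the annotated start. Of 32851 promoter windows 14 held it (0.0426%), a share given as a description because the run was taken from these genes. The TATA word followed at 37, 40 and 44 bases from the first base of the run in Cxcl1, Cxcl2 and Cxcl3, and was present in 5.42% of windows. Over 60 bases aligned without gaps on the shared run, 48.3% were identical between Cxcl1 and Cxcl2, 45% between Cxcl1 and Cxcl3 and 43.3% between Cxcl2 and Cxcl3. The windows of Cxcl12 and Cxcr2 held neither, and that of Cxcr4 held the TATA word once and the shared run not at all. These are matches of letters in short windows and were not tested as binding sites.

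All values are log2 expression values from Affymetrix whole-transcript arrays, so a difference of 1 is a doubling. Background was judged from olfactory receptor genes, which are scarcely expressed in heart: the 95th percentile of their levels was 4.74, and 7 of the 8 members had a mean above it. Cxcl3, with a mean of 4.65, did not, so its differences are those of a weak signal. Correlations between arrays ran from 0.978 to 0.987. On the first principal component of genes above background, DJ-1 replicates 3 and 4 lay at one end, at 15.6 and 13.2, with placebo replicates 3 and 4 next to them at 6.20 and 7.10, while the other arrays lay between -13.8 and -1.57. The tissue label fitted the markers, with the mean level of 10 ventricular cardiomyocyte markers between 12.7 and 13.0 in every array. In bulk tissue, fewer cells of a type and less RNA per cell cannot be told apart.

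No member passed the comparison of DJ-1 with placebo (0 of 8 at an adjusted p of 0.05), and neither did any other gene (0 of 19938, or 0% of those tested, in limma with Benjamini-Hochberg adjustment). At an unadjusted p under 0.05, Cxcl12 and Cxcr4, a ligand and its receptor, were the 2 members counted, both with lower means in DJ-1 hearts. The background share at that threshold was 5.99% of all genes (1194), made up of 3.63% with higher and 2.36% with lower means. With each array centred on its median, that split of 724 higher and 470 lower became 435 higher and 796 lower. With only the 13693 genes above background tested, it was 331 higher and 450 lower, and their median difference was -0.014. The 4 ELR ligands and Cxcr2 (5 of 8 members) had higher means in DJ-1 hearts, and Cxcl12, Cxcl16 and Cxcr4 lower means, against 52.5% of all genes with a higher and 47.5% with a lower mean. The median difference of the 8 members was 0.35, against 0.01 over all genes. It lies between the differences of Cxcl3 (0.26) and Cxcl1 (0.44), which were 0.19 and 0.08 without DJ-1 replicate 2.

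**Figure D1:**
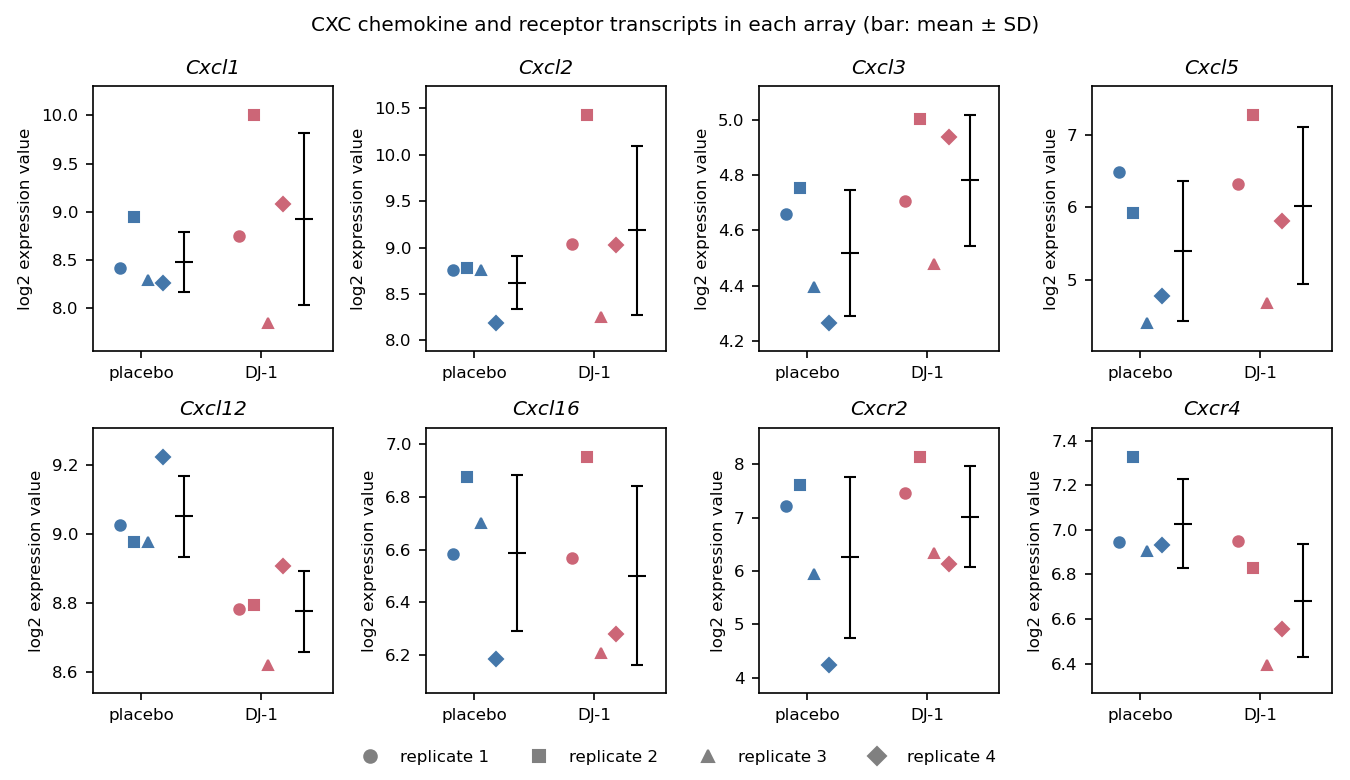
Log2 expression value of each of the 8 transcripts (vertical axes, scaled per gene) in the 4 placebo and 4 DJ-1 arrays, with symbols for the replicate number and bars for mean ± SD. DJ-1 replicate 2 is the highest array for all 4 ELR ligands, Cxcl16 and Cxcr2, and the groups are apart in Cxcl12 alone.

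Cxcl1, a neutrophil attractant induced within hours of injury, stood at 8.41, 8.94, 8.29 and 8.26 in placebo replicates 1 to 4 and at 8.75, 10.01, 7.85 and 9.08 in DJ-1 replicates 1 to 4. That group held both the highest and the lowest array, so the placebo values lay wholly inside its range. Group means were 8.48 ± 0.32 for placebo and 8.92 ± 0.89 for DJ-1 (SD, n = 4 each). They differed by 0.44 (SE 0.35, 95% confidence interval from -0.33 to 1.22), less than the SD of the DJ-1 hearts (adjusted p = 0.854 in limma, exact permutation p = 0.4, two-sided). Without DJ-1 replicate 2 the difference was 0.08, and without DJ-1 replicate 3 it was 0.80.

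Cxcl2, the closest neighbour of Cxcl1 on the chromosome and a strong neutrophil attractant made by macrophages, had placebo values of 8.76, 8.78, 8.75 and 8.19 and DJ-1 values of 9.03, 10.43, 8.25 and 9.02. Replicates 1, 2 and 3 of the placebo group were nearly equal and replicate 4 was low, while the DJ-1 hearts were spread on both sides of them. The difference was 0.57 (SE 0.35, 95% confidence interval -0.21 to 1.34, adjusted p = 0.83 in limma, exact permutation p = 0.286). As a fold this is 1.48, with an interval from 0.865 to 2.54. The SD was 0.29 in placebo and 0.91 in DJ-1 hearts.

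Cxcl3, another ligand of CXCR2, was weak. Placebo replicates 1 to 4 had 4.66, 4.75, 4.39 and 4.27, and DJ-1 replicates 1 to 4 had 4.71, 5.001, 4.48 and 4.94. The groups overlapped, and of the 4 DJ-1 arrays only replicates 2 and 4 were above all placebo arrays. Its difference was 0.26 (SE 0.14, 95% confidence interval -0.05 to 0.58, adjusted p = 0.824 in limma, exact permutation p = 0.143).

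Cxcl5, an ELR chemokine made largely by epithelial and stromal cells and by platelets, had a wide spread in both groups. The placebo values were 6.48, 5.92, 4.41 and 4.77, and the DJ-1 values 6.32, 7.28, 4.69 and 5.80. Replicate 3 was the lowest array of each group, and placebo replicates 3 and 4 and DJ-1 replicate 3 were near the background guide. Means of 5.40 ± 0.97 and 6.02 ± 1.08 (SD, n = 4 each) gave a difference of 0.63 (SE 0.53, 95% confidence interval -0.54 to 1.79, adjusted p = 0.864 in limma, exact permutation p = 0.486).

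The 4 ELR ligands thus shared DJ-1 replicate 2 as the highest array, and single arrays moved their differences. Without DJ-1 replicate 3, the lowest DJ-1 array for each of them, all 4 ligands had an unadjusted p under 0.05 in limma and Cxcl12 and Cxcr4 did not (4 of 8 members, against 934 or 4.68% of all genes in that fit, in which 1 gene, the low-expressed Pramel27, was past adjusted p 0.05). Without DJ-1 replicate 2 the differences of Cxcl1, Cxcl2, Cxcl3 and Cxcl5 were 0.08, 0.15, 0.19 and 0.21. Without DJ-1 replicates 3 and 4, which keeps the placebo arrays of the same numbers, they were 0.90, 1.11, 0.34 and 1.40. In an alternative added after seeing the data, without replicates 3 and 4 of both groups, they were 0.70, 0.97, 0.15 and 0.60, and Cxcl2 was the only member with an unadjusted p under 0.05, against 3.61% of all genes.

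**Figure D2:**
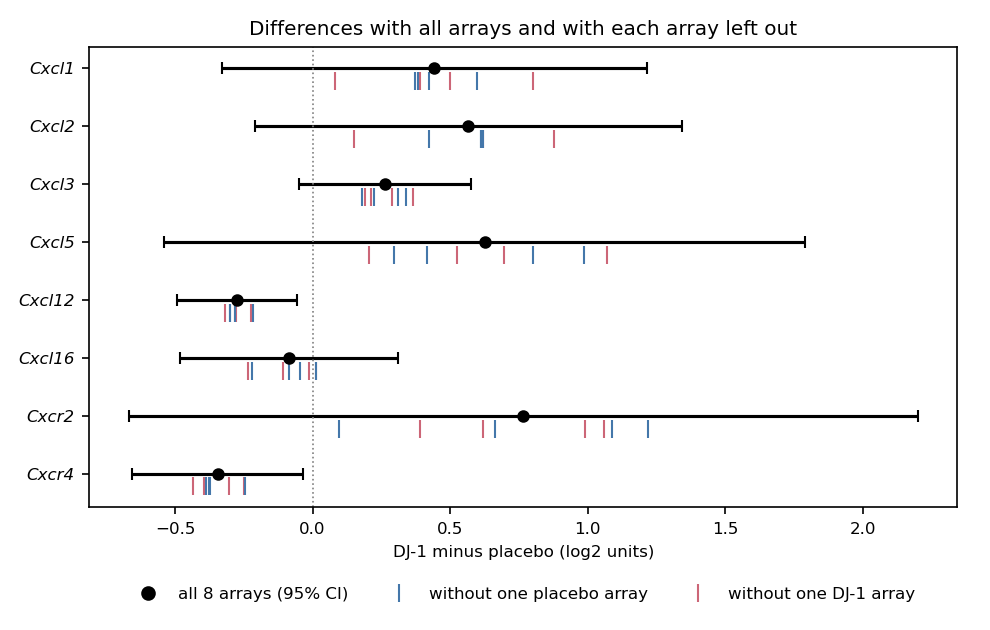
Difference of each transcript, DJ-1 minus placebo in log2 units, with all 8 arrays (point and 95% confidence interval of the limma fit) and with each placebo (blue) or DJ-1 (red) array left out (ticks). The ticks of Cxcl12 run from -0.32 to -0.22 and those of Cxcr4 from -0.43 to -0.24, those of Cxcr2 from 0.10 to 1.22, and those of Cxcl16 fall on both sides of 0.

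Cxcr2, the receptor through which ELR ligands act and a gene of neutrophils, varied more than any other member. It stood at 7.22, 7.61, 5.94 and 4.24 in placebo and at 7.46, 8.14, 6.34 and 6.14 in DJ-1 replicates 1 to 4. In both groups replicates 1 and 2 were high and replicates 3 and 4 low, and placebo replicate 4 lay below the background guide. The means of 6.25 ± 1.52 and 7.02 ± 0.95 (SD, n = 4 each) differed by 0.77 (SE 0.65, 95% confidence interval -0.67 to 2.20, adjusted p = 0.864 in limma, exact permutation p = 0.429). Without placebo replicate 4 the difference was 0.10, and without placebo replicate 2 it was 1.22. The spread within groups (a pooled SD of 1.27) was larger than that of 99.96% of the genes above background. That of Cxcl1 and Cxcl2 was past 99.5% and that of Cxcl5 past 99.88% of them.

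The mean of the neutrophil markers moved with Cxcr2, but not every marker did. In DJ-1 replicate 2, the array of highest Cxcr2, Elane was at its lowest (4.81). Ltf and Camp were highest in DJ-1 replicate 3. The list of 15 measured markers, which does not hold Cxcr2, had a mean level between 4.75 and 6.70 in placebo and between 5.60 and 6.90 in DJ-1 arrays, and 13 of the 15 were above the background guide (Mpo and Ltf were not). Relative to each gene's own mean, the list stood at -0.23, 0.71, -0.49 and -1.23 in placebo replicates 1 to 4 and, for DJ-1, at 0.72, 0.92, -0.01 and -0.39. Of all genes 52.5% had a higher mean with DJ-1, as did all 15 markers, and the median difference of the markers was 0.66. Of these, Ltf, a granule protein gene at background level, differed by 0.35 (SE 0.14, unadjusted p = 0.0247 in limma). Lcn2, an iron-sequestering granule protein, differed by 1.07 (SE 0.49, unadjusted p = 0.0486 in limma). Ngp, another granule protein, differed by 1.06 (SE 0.57), with placebo replicates 1, 3 and 4 and DJ-1 replicate 4 below the background guide. Each of the 3 had an adjusted p of 0.824 in limma. The part of these cells in the differences of Cxcr2 and its ligands was not tested.

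Cxcl12, the ligand that retains and guides CXCR4-bearing cells, was the member whose groups did not overlap. It stood at 9.03, 8.98, 8.98 and 9.22 in placebo and at 8.78, 8.79, 8.62 and 8.91 in DJ-1 replicates 1 to 4. Every DJ-1 heart was below every placebo heart, a pattern that 1.68% of all genes showed in that direction (334 of 19938), with 1.54% apart in the other direction and 3.22% in either. Its mean was 9.05 ± 0.12 for placebo and 8.78 ± 0.12 for DJ-1 (SD, n = 4 each). The difference, -0.28 (SE 0.10, 95% confidence interval -0.49 to -0.06), had an unadjusted p of 0.0178 and an adjusted p of 0.824 in limma, and the exact permutation p was 0.0286, the smallest that 4 against 4 arrays allow. As a ratio of DJ-1 to placebo this is 0.826, with an interval from 0.71 to 0.961.

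The lower Cxcl12 mean did not hang on a single array, although its unadjusted p did. With each array left out the difference ran from -0.32 to -0.22, and the unadjusted p was above 0.05 without placebo replicate 4 (0.0571) and without DJ-1 replicate 3 (0.0573). It was -0.25 with quantile normalization, -0.24 with cyclic loess and -0.32 with each array centred on its median. Markers of stromal and vascular cells, known sources of CXCL12, also had lower means in DJ-1 hearts for most genes, against 47.5% of all genes. Of fibroblast markers 8 of 10 were lower, with a median of -0.06 and mean levels of 8.57 to 8.78 in placebo and 8.50 to 8.65 in DJ-1 arrays. Of smooth muscle and pericyte markers 7 of 9 were lower (median -0.13, mean levels 8.82 to 8.98 and 8.71 to 8.93), and of endothelial markers 6 of 10 (median -0.06, mean levels 9.10 to 9.39 and 9.13 to 9.28), with all markers of these 3 lists above the background guide. Of ventricular cardiomyocyte markers 7 of 10 were lower (median -0.03), so lower means were not particular to these lists. The part of stromal and vascular cells in the Cxcl12 difference was not tested.

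Cxcr4, the receptor of CXCL12 on leukocytes, progenitor cells and endothelium, stood at 6.94, 7.33, 6.90 and 6.93 in placebo and at 6.95, 6.83, 6.40 and 6.55 in DJ-1 replicates 1 to 4. In the DJ-1 group replicate 1 lay within the placebo range and the other 3 arrays below it. The difference was -0.34 (SE 0.14, 95% confidence interval -0.66 to -0.03, unadjusted p = 0.0323 and adjusted p = 0.824 in limma, exact permutation p = 0.114). The ratio of DJ-1 to placebo was 0.787, with an interval from 0.635 to 0.976. DJ-1 replicates 3 and 4, the lowest for Cxcr4, are the arrays at the end of the first principal component. Without them the difference was -0.14, in a fit that kept placebo replicates 3 and 4. Without replicates 3 and 4 of both groups, an alternative added after seeing the data, it was -0.25. In limma its unadjusted p was above 0.05 when single arrays were left out: 0.105 without placebo replicate 2, the highest array, then 0.103 and 0.0795 without replicates 3 and 4 of the DJ-1 group in turn. The differences were then -0.24, -0.25 and -0.30.

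Although both means were lower in DJ-1 hearts, no relation of Cxcl12 with Cxcr4 from heart to heart passed the test. Pearson's r over the 8 arrays was 0.54 (exact permutation p = 0.157, adjusted p = 0.246) and Spearman's rho 0.38 (exact permutation p = 0.36, adjusted p = 0.498), and r was 0.29 without the 2 arrays farthest from the Cxcl12 median. With the group means removed r was 0.027. The atypical receptor Ackr3, which takes up CXCL12, differed by 0.03 (95% confidence interval -0.32 to 0.38).

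Cxcl16, the membrane-bound ligand of CXCR6, did not differ beyond its spread. It stood at 6.58, 6.88, 6.70 and 6.18 in placebo and at 6.57, 6.95, 6.21 and 6.28 in DJ-1 replicates 1 to 4, so the groups covered nearly the same range. The difference of -0.09 (SE 0.18, 95% confidence interval -0.48 to 0.31, adjusted p = 0.949 in limma, exact permutation p = 0.743) became 0.011 without placebo replicate 2 and 0.013 without DJ-1 replicate 3. Adam10, the protease known for its shedding, differed by -0.28 (SE 0.11, unadjusted p = 0.0265, adjusted p = 0.824 in limma), and its receptor Cxcr6 was below the background guide.

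Among the 6 pairs of ELR ligands, 1 pair passed the adjusted threshold by Pearson's r and 3 by Spearman's rho, and none of the 3 pairs with Cxcl5 passed by either (adjusted p 0.0682 by r and 0.167 by rho). In a family of 36 relations (the 28 pairs of members and each member against the neutrophil markers), Pearson's r had a positive sign in 28. For the ELR pairs r ran from 0.79 to 0.93. Cxcl1 and Cxcl2 had r = 0.93 (exact permutation p = 0.00186, adjusted p = 0.0335) and rho = 0.90 (exact permutation p = 0.00456, adjusted p = 0.0411). With group means removed this r was 0.92, being 0.48 within placebo and 0.97 within DJ-1 hearts, and it was 0.69 without DJ-1 replicates 2 and 3, the arrays farthest from the Cxcl1 median. With each array left out in turn, this relation passed in 2 of 8 fits, those without placebo replicate 2 and without DJ-1 replicate 1, and the adjusted permutation p ran from 0.0393 to 0.271 (without DJ-1 replicate 2). Cxcl1 and Cxcl3 had r = 0.85 (exact permutation p = 0.00518, adjusted p = 0.0622), and 0.91 without the same 2 arrays. Their rho was 0.93 (exact permutation p = 0.00223, adjusted p = 0.0402). Cxcl2 and Cxcl3 had r = 0.79 (exact permutation p = 0.00699, adjusted p = 0.0629) and rho = 0.90 (exact permutation p = 0.00456, adjusted p = 0.0411). The mean of Cxcl3 was below the background guide, and rho was not computed with arrays left out. The 3 genes are close relatives, and the probe sequences were not examined, so signal shared between their probe sets was not tested.

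Of the relations of Cxcr2, only that with the neutrophil markers passed the adjusted threshold. Its r with the mean of the 15 markers was 0.94 (exact permutation p = 0.000769, adjusted p = 0.0277) and its rho 0.95 (exact permutation p = 0.00114, adjusted p = 0.0402). This r was 0.92 within placebo hearts, 0.97 within DJ-1 hearts and 0.84 without DJ-1 replicate 2 and placebo replicate 4. It passed in 5 of 8 fits with an array left out, but missed the threshold when replicate 3 or 4 of the placebo group (adjusted permutation p = 0.0571 and 0.144) or replicate 2 of the DJ-1 group (0.114) was the one removed. Among the ligands, Cxcl5 had the highest r with Cxcr2, at 0.79 (exact permutation p = 0.0168, adjusted p = 0.0757), with a rho of 0.79 (exact permutation p = 0.0279, adjusted p = 0.165). The r of Cxcl2 with the neutrophil markers was 0.65 (exact permutation p = 0.0621, adjusted p = 0.149). It was 0.15 without DJ-1 replicate 2 and placebo replicate 4, the arrays farthest from the Cxcl2 median. Leaving out such arrays also narrows the range, so the drop alone does not show that the relation rests on them. Whether Cxcr2 is closer to the markers than to the ligands was not tested.

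**Figure D3:**
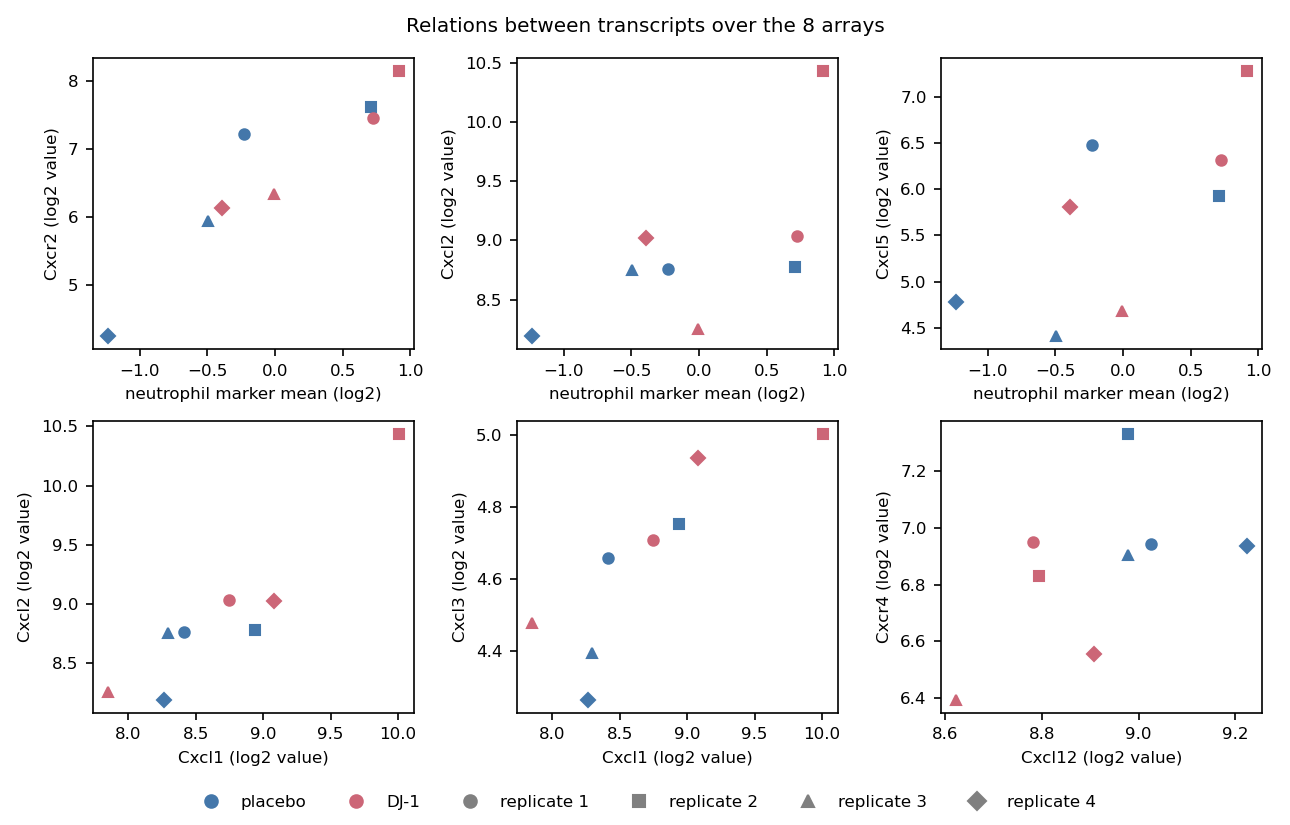
Log2 values of pairs of transcripts over the 8 arrays (blue, placebo; red, DJ-1; symbols, replicate number), with the mean of the 15 neutrophil markers relative to each gene's own mean on the horizontal axes of the upper row. Cxcr2 rises with the neutrophil markers (r = 0.94) and Cxcl2 with Cxcl1 (r = 0.93), while Cxcl12 and Cxcr4 form no clear line (r = 0.54).

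The genes most like each member over the 8 arrays were found by Pearson's r, as a description. Candidates were the 9969 genes in the upper part of the level range (above the median). The highest of so many r over 8 arrays are large by selection, and they were not tested. The gene most like Cxcr2 was Clec4d (r = 0.99), a lectin receptor of myeloid cells that is one of the neutrophil markers, followed by Mxd1 and Hdc (both 0.97). Cxcl1 was most like the interferon-inducible chemokine Cxcl9 (0.99), with Rnd1 (0.98) and Rell1 (0.97) next, and Cxcl2 like Ngdn (0.97), Fgl2 (0.96) and Cxcl9 (0.95). For Cxcl5 they were Lcp2 (0.98), an adaptor of blood cells, the NF-kappaB cofactor Bcl3 (0.98) and Ptprj (0.98), and for Cxcl3 Sdc4 (0.96), S100a11 (0.95) and Rc3h1 (0.95). Those of Cxcl12 were Mxra8, Fads1 and Ddo (each 0.97), those of Cxcl16 H2-Ea (0.97), Nup37 (0.97) and the leukocyte antigen Ptprc (0.97), and those of Cxcr4 Zfp729b (0.97), Hnrnpr (0.96) and 0610010F05Rik (0.96).

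The rest of the CXC family gave no call at the adjusted threshold. Of 9 other ligands 8 were higher on average with DJ-1 (median difference 0.16), against 52.5% of all genes. Cxcl10, an interferon-inducible attractant of T cells, had placebo values of 5.44, 5.57, 5.42 and 5.17 and DJ-1 values of 5.81, 7.01, 5.03 and 6.08 (replicates 1 to 4). As with the ELR ligands, replicate 2 was the highest and replicate 3 the lowest of the DJ-1 arrays. Cxcl15 was at background level and differed by 0.30 (unadjusted p = 0.0363), and Cxcl14, the 1 ligand with a lower mean, by -0.32 (SE 0.19). The platelet chemokines Pf4 and Ppbp, neighbours of Cxcl5, differed by 0.04 and 0.05. Of the 6 other receptors 4 were at or below the background guide. Their leading members, Cxcr1, Cxcr3 and Ackr1, differed by 0.20, 0.29 and 0.25, none with an unadjusted p under 0.05. Cxcr1 and Ackr1 were among those at or below the guide.

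The cytokines listed as inducers of ELR chemokines had a higher mean with DJ-1 in 9 of 9 genes (median 0.43), against 52.5% of all genes. None passed, and Csf2 and Il17a were at or below the background guide. Csf2 differed by 0.43 (SE 0.21) at background level, the cytokine Osm by 0.57 (SE 0.32) and Il1a by 0.47 (SE 0.26). The list followed the array pattern of the ligands, with placebo means of 0.05, 0.22, -0.33 and -0.64 and DJ-1 means of 0.18, 0.79, -0.45 and 0.17 (replicates 1 to 4, relative to each gene's mean), with DJ-1 replicate 2 again highest. Of 11 NF-kappaB subunits and feedback genes 10 had a higher mean (median 0.14), with the inhibitor Nfkbie at -0.17, the inhibitor Nfkbib at 0.14 and Bcl3 at 0.50. Neither list had a member with an unadjusted p under 0.05.

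Next come lists of genes that act after the ligands. Of 12 genes of CXC receptor signalling and desensitisation 7 had a higher and 5 a lower mean (median 0.05), led by the arrestin gene Arrb1 at -0.17, the kinase subunit Pik3cg at -0.26 and its regulatory partner Pik3r5 at 0.28. Of 9 genes that shed, cleave or present CXC ligands 5 were higher and 4 lower (median 0.05), with Adam10, Hmgb1 at 0.27 and the heparan sulfate proteoglycan Sdc4 at 0.19 leading. All 7 measured genes of neutrophil rolling and arrest had a higher mean (median 0.14), against 52.5% of all genes. The leukocyte integrin chain Itgb2 differed by 0.21, its endothelial ligand Icam1 by 0.49 and the selectin ligand Selplg by 0.11. No gene of these 3 lists passed. Adam10 was the 1 gene among them with an unadjusted p under 0.05, a threshold that 5.99% of all genes met.

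**Figure D4:**
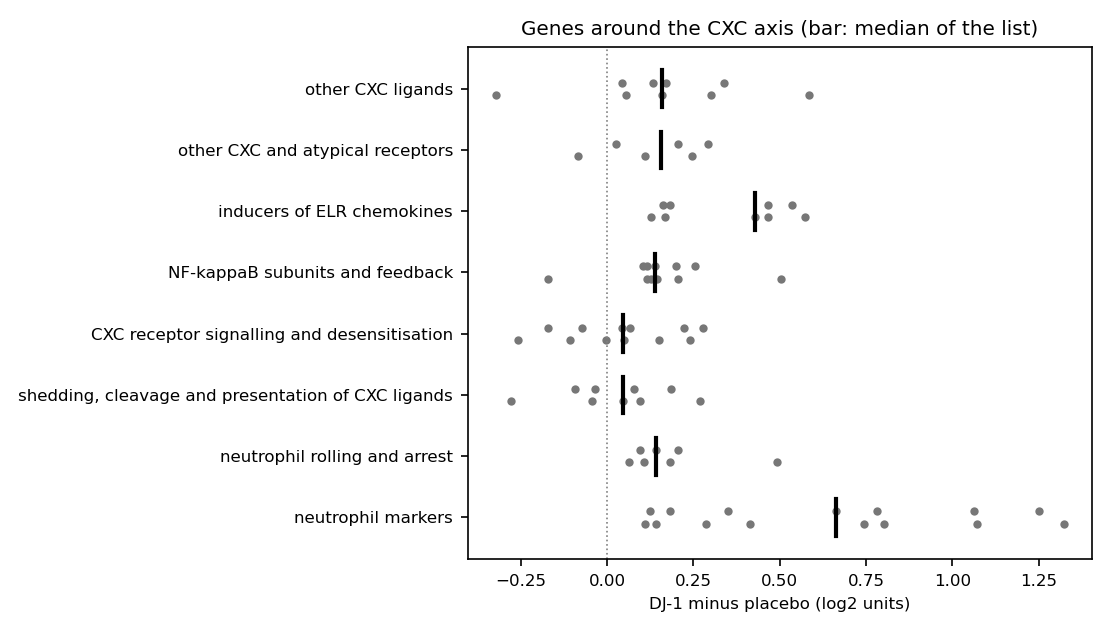
Difference of each gene, DJ-1 minus placebo in log2 units, in 7 lists of the CXC axis and in the neutrophil markers, with the median of each list as a bar. The medians of the inducing cytokines (0.43) and of the neutrophil markers (0.66) are the highest, and those of receptor signalling and of ligand shedding are 0.05.

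Markers of other cells gave the following values, beside 52.5% of all genes with a higher and 47.5% with a lower mean. Of 11 monocyte and macrophage markers 6 had a higher and 5 a lower mean (median difference 0.02). Those of smallest p, Fcgr1, Lyve1 and Ccr2 (the last below the background guide), stood at 0.22, 0.36 and 0.16. Of 9 lymphocyte markers 4 were higher and 5 lower (median -0.06), with Cd79a, Ighm and Ms4a1 (the last below the background guide) at -0.44, 0.21 and -0.28. Of 7 platelet markers 6 were higher and 1 lower (median 0.05), with Gp5, Treml1 and Itga2b at 0.20, 0.08 and -0.07. The leading stromal and vascular markers were Gsn, Lum and Pdgfra at -0.21, -0.31 and -0.25 for fibroblasts, Kcnj8, Pdgfrb and Notch3 at -0.44, -0.30 and -0.20 for smooth muscle and pericytes, and Kdr, Emcn and Tie1 at -0.48, -0.21 and -0.13 for endothelium. Of 10 ventricular cardiomyocyte markers 3 were higher and 7 lower (median -0.03), with Ttn, Ryr2 and Myh6 at -0.31, -0.18 and -0.06. Unadjusted p in limma was under 0.05 for Kcnj8 (0.0067), Kdr (0.0122), Pdgfrb (0.0257), Cd79a (0.0258), Gsn (0.0306) and Lum (0.0358). All of these had lower means, as did 2.36% of all genes at that threshold. Adjusted p in limma was 0.824 or above throughout.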

How the data were processed

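Expression was measured on 8 arrays with 35556 probe sets. The authors deposited log2 values after robust multi-array averaging, a step named in the submitters' processing notes. Their software version is not given in the sources used here; neither is an annotation build, and no scan batch was examined. Total RNA (100 ng, integrity number above 7) was used, per the labels' protocols. Gene names came from the platform annotation: 21789 probe sets had 1 symbol, 1621 several and 12146 none. The probe set of highest mean was taken per gene.

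DJ-1 and placebo arrays were compared with limma 3.58.1 (lmFit, eBayes, two-sided) in R 4.3.3 over 19938 genes without covariates, tested on simulated data. Single members also had an exact permutation test, and correlations exact permutation p with Benjamini-Hochberg adjustment over 36 relations. The labels number the samples without saying that each is a separate mouse, so p-values measure only the spread between these samples, which may be technical, and their number limits precision. The word heart stands for 1 such sample. Members, lists, tests and alternatives were chosen with earlier results of these data known. Genes were named by rule: the 8 members, the 3 of smallest p in each list, and the 3 of highest r with each member; other genes named were chosen after their values were seen. Listed genes that were not matched to a singly named probe set were not analysed here. Alternatives were 3 scalings, limma settings, probe set choice, a background filter and arrays left out.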

Additional observations from a re-analysis of the deposited data

Results flagged for a closer look

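In 2 of the 16 groups of 4 arrays tested (8 members in each group), 1 array stood far from the other 3. For Cxcl2 in placebo hearts, replicate 4 (8.19) was below the other arrays (8.75 to 8.78) by a gap of 0.962 of the group's range. For Cxcr4 in placebo hearts, replicate 2 (7.33) was above the others (6.90 to 6.94) by 0.906 of the range. Both gaps are above the 95% critical value of Dixon's ratio for 4 samples, which chance alone exceeds in about 1 group of 20.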

How the results depend on the processing

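Over 20 alternatives the 8 members gave 159 differences, since Cxcl3 was removed by the background filter; 155 kept their direction, none had an adjusted p under 0.05 (0.651 to 1.00), and 4 reversed, all in Cxcl16. Its difference ran from -0.24 to 0.013 with each array left out, and was 0.17 without DJ-1 replicates 3 and 4 and 0.029 without replicates 3 and 4 of both groups, an alternative chosen after seeing the data. With each array left out, the others ran from 0.08 to 0.80 (Cxcl1), 0.15 to 0.88 (Cxcl2), 0.18 to 0.36 (Cxcl3), 0.21 to 1.07 (Cxcl5), -0.32 to -0.22 (Cxcl12), 0.10 to 1.22 (Cxcr2) and -0.43 to -0.24 (Cxcr4). The number of members with an unadjusted p under 0.05 (2) was 1 with array weights (5.16% of all genes) and 1 without replicates 3 and 4 of both groups (3.61%). It was 4 without DJ-1 replicates 3 and 4 (4.57% of all genes), and 1 to 4 with each array left out (4.18% to 7.42% of all genes). It was 4 with the replicate number as a block (Cxcl12, Cxcl5, Cxcr2 and Cxcr4), against 1302 or 6.53% of all genes, with none past the adjusted threshold. With this block the SE fell from 0.65 to 0.24 for Cxcr2 (unadjusted p = 0.0097, adjusted p = 0.689 in limma). For Cxcl5 it fell from 0.53 to 0.22 (unadjusted p = 0.0181, adjusted p = 0.723 in limma), while for Cxcl12 it stayed at 0.10. The numbers were not taken as pairs: same-numbered arrays had correlations of deviations from -0.05 to 0.24, and 3 of 8 arrays correlated best with their own number. On the first principal component, however, replicates 3 and 4 of both groups had higher scores than replicates 1 and 2. In placebo this was an order without a clear gap, since replicate 1 (-1.57) lay nearer to replicate 3 (6.20) than to replicate 2 (-13.8). What this order by number reflects was not tested. Genes under an unadjusted p of 0.05 (1194) numbered 781 with the background filter, which tests fewer genes, 720 without replicates 3 and 4 of both groups, and 833 to 1480 with each array left out. Genes past adjusted p 0.05 (0) numbered 0 to 1 with each array left out and 1 without replicates 3 and 4 of both groups (Car3). Correlations past adjusted p 0.05 (2 of 36) numbered 5 with quantile normalization, 5 with median centring, 5 with cyclic loess, 4 without DJ-1 replicates 3 and 4, and 0 to 2 with each array left out. The r of Cxcl1 with Cxcl2 was then between 0.80 and 0.95, and that of Cxcr2 with the neutrophil markers between 0.89 and 0.99. The causes of these shifts were not tested. Signal over background limits Cxcl3.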
